A study of Mus musculus with 12 samples.

Results

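The S100 proteins are a family of small calcium-binding proteins, and 10 of its genes were followed here in mouse mammary organoids treated with a WNT pathway agonist. The members were the rows of the raw count table whose gene symbol was S100a1, S100a3, S100a4, S100a6, S100a8, S100a9, S100a10, S100a11, S100a14 or S100a16, which is 10 of 25210 genes. All 10 passed the filter on low counts that left 15316 genes for testing. At 3 µM of the agonist 8 members rose and 2 fell (29.9% and 27.7% of all genes tested), and the alarmins S100a8 and S100a9 went from 0.889% to 46.3% of the family's summed level per kilobase of exon.

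Most S100 proteins, though not all, bind calcium through a pair of EF-hand loops and change shape on binding so that they can hold a partner protein. They usually act as dimers. S100A8 and S100A9 pair to form calprotectin, which sequesters zinc and manganese from microbes and, once released, signals through receptors such as TLR4. Neutrophils carry large amounts of it, and stressed or differentiating squamous epithelia make it too. S100A4 and S100A6 are used as markers of mesenchymal and motile cells, S100A10 and S100A11 bind annexins at membranes, and S100A14 and S100A16 are found mainly in epithelia. Most S100 genes of the mouse lie on chromosome 3 beside the epidermal differentiation complex, a run of genes for the cornified envelope of skin.

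The organoids were primary mammary gland organoids of FVB/N mice, taken from virgin females of 8 to 11 weeks and grown in growth-factor-reduced Matrigel and minimal medium. Each of 3 cultures, from 3 animals per the series' design text, was split over 4 treatments of 7 days: the vehicle DMSO alone, or CHIR99021 in doses of 1, 1.5 and 3 µM. This compound blocks GSK3, a kinase that marks β-catenin for breakdown, and so switches on WNT signalling without a WNT ligand. Polyadenylated RNA was sequenced with a stranded kit, giving 12 libraries, 3 per group, numbered by culture. The titles also carry a suffix that runs with the culture number (med, min and max for cultures 1, 2 and 3), whose meaning the labels do not give, so that whatever it marks cannot be told apart from the culture. The groups share strain, matrix and medium and carry no transgene, and an organoid holds whatever stromal cells came with the gland fragment.

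Library totals ranged from 10129264 to 24485855 counts, and the 10 members took 0.0820 to 0.0995% of the counts with DMSO and 0.204 to 0.308% at 3 µM. Levels are given as CPM, counts relative to a library size that edgeR's TMM method had scaled, and between genes as RPKM, that CPM per kilobase of exon. Tests are edgeR's quasi-likelihood test with Benjamini-Hochberg adjustment over the 15316 genes, and a gene was called at an adjusted p under 0.05. Of 8 WNT feedback genes tested, 4 rose and 1 fell at 3 µM (29.9% and 27.7% of all genes). Axin2 rose from 2.75 ± 0.491 CPM to 83.8 ± 42.3 CPM (SD, n = 3), and Lgr5 fell from 187 ± 39.6 CPM to 0.288 ± 0.168 CPM. The epithelial markers Epcam and Krt8 were present in every library. Of 12 squamous genes 12 rose at both 1.5 and 3 µM, against 15.4% and 29.9% of all genes. Some of them, such as Lor, Flg and Tgm3 with 0 to 4 counts per DMSO library, passed the filter through treated libraries. A fall could hardly be called for these. At 3 µM 6 of 6 endothelial, 5 of 5 adipocyte and 7 of 9 leukocyte genes fell, against 27.7% of all genes. Of 10 fibroblast genes 2 fell, a share not above that of all genes. Their median log2 change was nevertheless -2.18, though Dcn had 0.44 ± 1.72 (SE). Their summed level went from 4102, 9783 and 24482 CPM with DMSO to 233, 1154 and 5375 CPM in cultures 1, 2 and 3. The fit had no culture term, so the few calls do not show that these genes stayed level. None of the markers of these 4 types was called higher. In bulk RNA, fewer cells of a type and less RNA per cell cannot be told apart, and this holds for every member below.

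The alarmins gave the steepest rise of the family. S100a8, which encodes one chain of calprotectin, stood at 4.17, 5.07 and 12.1 CPM with DMSO in cultures 1, 2 and 3. It reached 13.3, 26.7 and 14.4 CPM at 1 µM, 50.3, 68.9 and 149 CPM at 1.5 µM, and 493, 936 and 1601 CPM at 3 µM. No treated group overlapped the DMSO group, and culture 3 was the highest of the 3 at 1.5 and 3 µM. The rise was 3.64 ± 0.626 on the log2 scale (SE) at 1.5 µM with an adjusted p of 0.00277 in edgeR's quasi-likelihood test. At 3 µM it was 7.14 ± 0.728, a 141-fold change, with an adjusted p of 3.1e-05. Within cultures the log2 change at 3 µM was 6.85, 7.50 and 7.03.

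S100a9, which encodes the other chain, had 0 counts in all 3 DMSO libraries, where a floor of 3 counts per library averages 0.200 CPM. It had 15, 10 and 2 counts at 1 µM, 92, 160 and 162 at 1.5 µM, and 1549, 2692 and 2848 at 3 µM. In CPM these last were 5.85, 6.14 and 9.38 at 1.5 µM and 121, 173 and 196 at 3 µM. Against the floor, S100a9 was at least 35.7-fold higher at 1.5 µM and at least 819-fold higher at 3 µM, with adjusted p-values of 0.000412 and 4.52e-06 in edgeR's quasi-likelihood test. The fitted fold change is not given, because with a control group at 0 it depends on the prior count. At 1 µM the adjusted p was 0.141, while DESeq2 gave 0.00232.

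**Figure D1:**
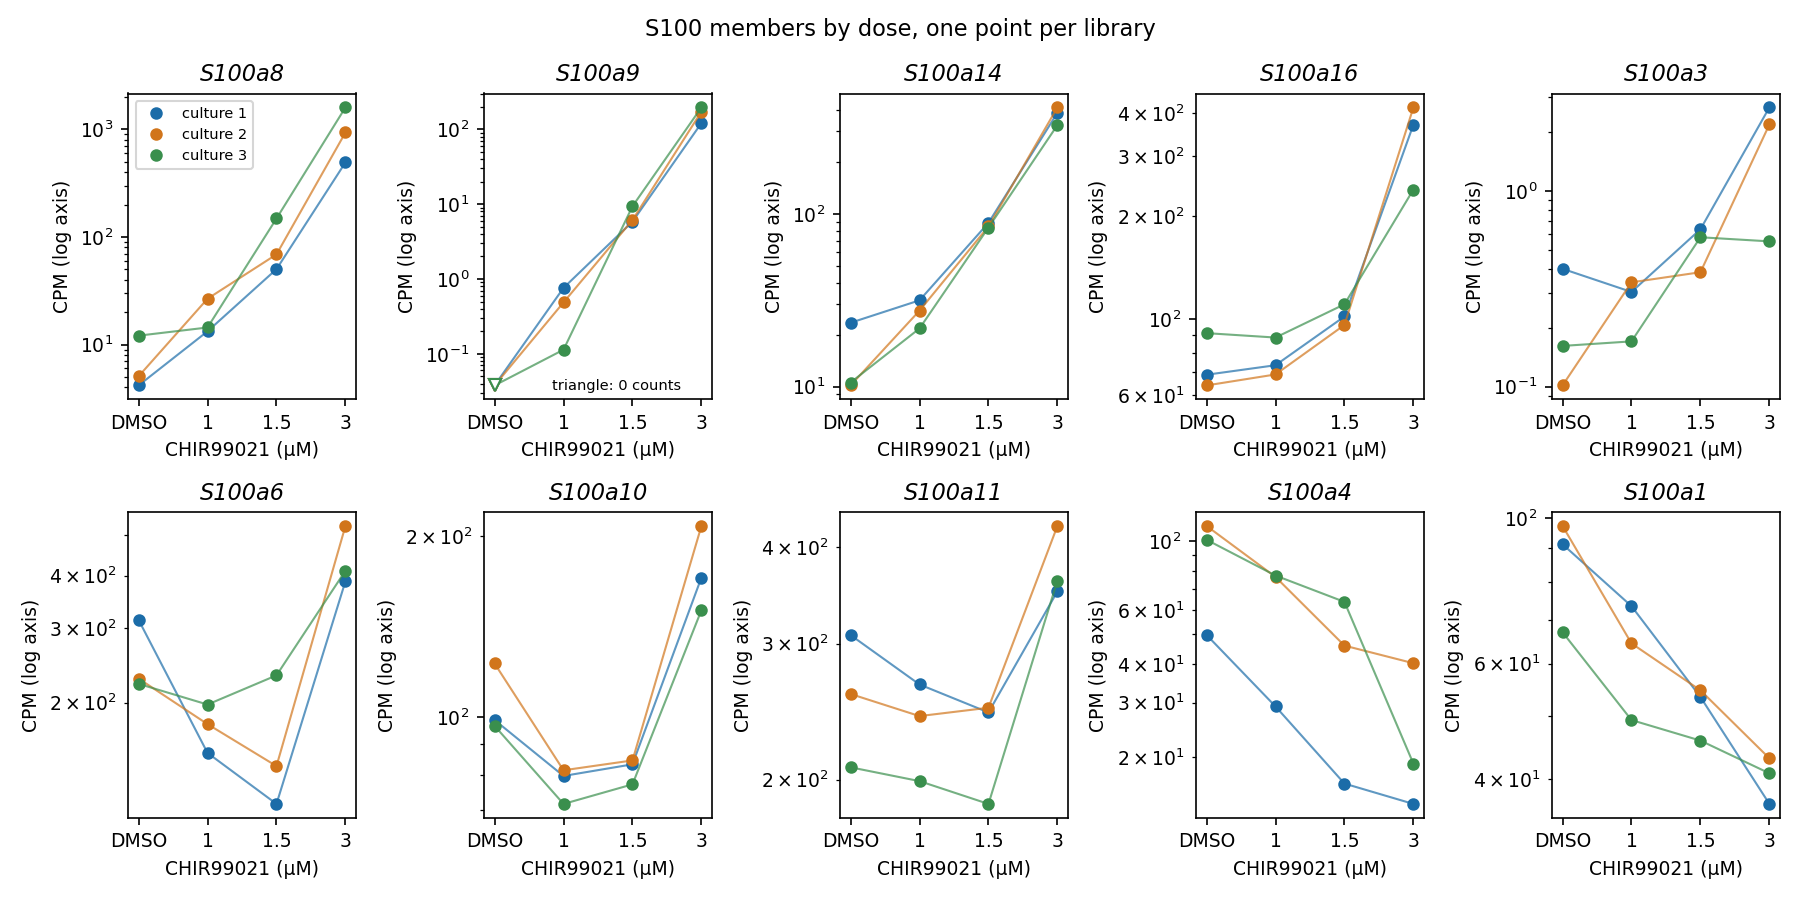
CPM of each of the 10 members on a log axis against CHIR99021 dose (equally spaced, not to scale), one point per library and one colour per culture, with lines joining the libraries of a culture. S100a8, S100a9 and S100a14 climb at each dose, S100a6, S100a10 and S100a11 have their lowest group means at 1 or 1.5 µM and their highest at 3 µM, and S100a4 and S100a1 descend.

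The promoters of the 2 alarmins are shown because these genes, neighbours on opposite strands, both rose at 1.5 and 3 µM. Sequences are from RefSeq on build GRCm38.p6, which has an entry for 8 of the 10 members (not for S100a10 or S100a14), and run 5′ to 3′ up to the first base that any annotated transcript covers. The S100a8 stretch is chr3:90668821-90668977 on the plus strand and the S100a9 stretch is chr3:90695722-90695971 on the minus strand.
S100a8: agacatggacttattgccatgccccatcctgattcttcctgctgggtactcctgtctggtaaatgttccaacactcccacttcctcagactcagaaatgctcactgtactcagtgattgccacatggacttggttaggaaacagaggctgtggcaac
S100a9: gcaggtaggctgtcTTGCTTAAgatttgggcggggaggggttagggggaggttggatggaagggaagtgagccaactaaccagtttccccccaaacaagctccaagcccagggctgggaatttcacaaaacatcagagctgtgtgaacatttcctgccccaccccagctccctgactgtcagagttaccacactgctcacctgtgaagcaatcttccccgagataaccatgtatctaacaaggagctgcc
Capitals mark letters that fit TTGCNNAA, a core recognised by C/EBP factors. Each window of 250 bases before the start was searched on both strands for these letters, for CTTTGA (the core of TCF/LEF sites, where β-catenin acts) and for TGANTCA (AP-1). None of the 3 was found for S100a8, and S100a9 held the C/EBP letters once, 236 to 229 bases before its start. Of 32851 RefSeq promoters, 9.56% held the C/EBP letters, 13.8% the TCF/LEF letters and 6.75% the AP-1 letters in such a window. A match describes letters only and not binding.

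The 2 alarmins did not keep a fixed ratio. S100a8 was counted before S100a9: with DMSO it had 94, 50 and 225 counts against 0, 0 and 0. The count ratio of S100a8 to S100a9 was 17.5, 54.8 and 127 at 1 µM, where S100a9 counts were low, 8.59, 11.2 and 15.8 at 1.5 µM, and 4.07, 5.42 and 8.15 at 3 µM. The ratio was thus lower at 3 µM than at 1.5 µM in all 3 cultures and the groups did not overlap, with culture 3 keeping the highest ratio at each dose. Per kilobase S100a8 stood 4.42 ± 1.56 times as high as S100a9 at 3 µM (SD, n = 3). Over the 12 libraries their log2 levels had a Pearson r of 0.976, given as a description, since both series share the doses.

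The neutrophil list gave mixed results. Ly6g, Ngp and Elane, genes of neutrophils and their precursors, had 0 counts in every library at 3 µM, and Mpo, the granule peroxidase, had at most 2, while S100a8 alone had 6299 to 23216. Camp and Csf3r, both neutrophil genes, fell at 3 µM (log2 changes of -2.41 ± 0.628 and -3.76 ± 0.595, adjusted p 0.00783 and 0.000433, edgeR's quasi-likelihood test). Cxcr2, a chemokine receptor of neutrophils, rose from 0 to 2 counts per library to 8 to 16, and Ltf, the lactoferrin gene of neutrophil granules and of mammary epithelium, rose by 4.56 ± 0.941 (adjusted p 0.00789 and 0.00223). Of the 10 genes in the list 9 were in the table and 5 were tested. At 3 µM 2 rose and 2 fell, against 29.9% and 27.7% of all genes. The list's summed level was 27.1 to 85.6 CPM with DMSO and 147 to 1485 CPM at 3 µM. Without Ltf, a gene left out after its values were seen, the sum was 3.33 to 7.51 CPM with DMSO and 1.80 to 2.37 CPM at 3 µM.

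Among the epithelial members, S100a14 and S100a16 had group means that were higher at each dose step. S100a14 stood at 23.4, 10.1 and 10.5 CPM with DMSO, 31.6, 27.5 and 21.7 at 1 µM, 88.7, 84.5 and 83.3 at 1.5 µM, and 385, 413 and 327 at 3 µM. The 1 µM group overlapped DMSO only through culture 1, the highest of the DMSO libraries, and the higher doses did not overlap it. Its log2 change was 2.53 ± 0.296 at 1.5 µM (adjusted p 0.000511) and 4.66 ± 0.323 at 3 µM (adjusted p 3.81e-06, edgeR's quasi-likelihood test), a 25.2-fold change. At 1 µM the adjusted p was 0.277, and 0.00944 without the DMSO library of culture 1. Between 1 and 1.5 µM it rose by 1.67 ± 0.285 (adjusted p 0.0127), a call lost without the 1.5 µM library of culture 1 (0.0521) or the 1 µM library of culture 2 (0.065) or 3 (0.0549).

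S100a16 rose at 3 µM. Its levels were 68.9, 64.1 and 91.2 CPM with DMSO, 73.5, 69.0 and 88.5 at 1 µM, 102, 96.3 and 111 at 1.5 µM, and 371, 416 and 240 at 3 µM. The 3 µM group lay above all others, with culture 3 the lowest, whereas S100a8 was highest there. The log2 change was 0.46 ± 0.201 at 1.5 µM (adjusted p 0.114, and 0.0393 without the 3 µM library of culture 3) and 2.19 ± 0.209 at 3 µM (adjusted p 2.03e-05, edgeR's quasi-likelihood test), a 4.57-fold change.

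S100a3, known from the hair cuticle, where it is a substrate of the deiminase encoded by Padi3, was the rarest member. It had 9, 1 and 3 counts with DMSO, 6, 7 and 3 at 1 µM, 10 in each library at 1.5 µM, and 34, 34 and 8 at 3 µM. In CPM the 3 µM libraries stood at 2.66, 2.18 and 0.552 and the DMSO libraries at 0.4, 0.101 and 0.161, without overlap. The log2 change at 3 µM was 2.87 ± 0.639 (adjusted p 0.00331, edgeR's quasi-likelihood test). Culture 3 did not take part in the last step, from 0.579 CPM at 1.5 µM to 0.552 at 3 µM. The call between those doses (1.76 ± 0.586, adjusted p 0.0459) was lost in 10 of 12 fits that left out a library, with adjusted p up to 0.152, and was kept only without the DMSO library of culture 1 or the 3 µM library of culture 3.
Padi3 rose by 4.11 ± 0.813 at 3 µM (adjusted p 0.00174). Of 12 genes listed as hair shaft genes 7 were in the table and 2 were tested. Krt84 rose, from 0 to 4 counts per library with DMSO to 17 to 654 at 3 µM, and Krt36 was not called. The untested Krt32, Krt35, Krt81, Krt83 and Krtap11-1 had at most 13, 1, 4, 14 and 0 counts per library at 3 µM. The sum of this list, at 3 µM mostly Krt84 and Krt36, was 1.94 to 8.73 CPM with DMSO. At 3 µM it was 45.4, 59.3 and 1.79 CPM in cultures 1, 2 and 3, so that culture 3 was again the low one.

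S100a1, best known as a calcium sensor of heart and skeletal muscle, fell. Its levels were 91.2, 97.3 and 67 CPM with DMSO, 73.4, 64.4 and 49.2 at 1 µM, 53.4, 54.6 and 45.8 at 1.5 µM, and 36.7, 43.0 and 40.8 at 3 µM. Each culture was lower at each higher dose, and the 1.5 and 3 µM groups lay wholly under DMSO. The log2 change was -0.73 ± 0.170 at 1.5 µM (adjusted p 0.0108) and -1.08 ± 0.172 at 3 µM (adjusted p 0.000438, edgeR's quasi-likelihood test), which is 2.12-fold lower at 3 µM.

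Of the 2 members used as mesenchymal markers, S100a4 fell and S100a6 rose at 3 µM. S100a4, also called fibroblast-specific protein, stood at 49.7, 112 and 101 CPM with DMSO, 29.2, 76.6 and 77.4 at 1 µM, 16.4, 45.9 and 63.6 at 1.5 µM, and 14.1, 40.3 and 19.0 at 3 µM. It went down at each step in each culture, culture 1 was the lowest at each dose, and the 3 µM group alone did not overlap DMSO. The log2 change at 3 µM was -1.84 ± 0.591 (adjusted p 0.0223, edgeR's quasi-likelihood test), 3.57-fold lower. Within cultures this change was -1.81, -1.47 and -2.40. In fits without a culture term, the call was lost without the 3 µM library of culture 1 (adjusted p 0.0739) or 3 (0.0636). It was also lost there without the DMSO library of culture 2 (0.0622) or 3 (0.0516). With all libraries and the culture as a block, all 10 members, S100a4 among them, were called at 3 µM. With the culture as a block, S100a4 was also lower at 1.5 µM, by -1.15 on the log2 scale (adjusted p 0.00605, against 0.197 without the block).

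Summed levels of leukocyte and fibroblast markers are given beside S100a4. At 3 µM 7 of 9 leukocyte genes tested fell and 2 of 10 fibroblast genes did, against 27.7% of all genes. The summed level of the 9 leukocyte genes in the table, of 10 listed, was 456, 1529 and 2896 CPM with DMSO in cultures 1, 2 and 3 and 158, 239 and 332 CPM at 3 µM. That of the 10 fibroblast genes was 4102, 9783 and 24482 CPM with DMSO and 233, 1154 and 5375 CPM at 3 µM. At 1 µM the leukocyte sum was 517, 1491 and 2196 CPM, higher in culture 1 than with DMSO while S100a4 was lower there. Lyz2 and Cd14 made up most of this sum. Cd14 had a higher mean at 1 µM (240 ± 37.9 CPM) than with DMSO (170 ± 49.1 CPM), while every other gene of the sum had a lower one. A higher sum therefore need not mean more of the other leukocyte genes. Both sums were lowest in culture 1 at every dose, as S100a4 was. With DMSO and at 3 µM S100a4 was higher in culture 2 than in culture 3, while both sums were lower. At 1 and 1.5 µM S100a4 and both sums were higher in culture 3 than in culture 2. No member of either sum in the table was at 0. The part of either sum in the S100a4 result was not tested. The log2 level of S100a4 over the 12 libraries had a Pearson r of 0.864 with the leukocyte sum and 0.795 with the fibroblast sum, a description in which all 3 share the doses and cultures. The gene most like it of 12430 compared was Fcrls (r = 0.967), a gene of macrophages and microglia, followed by Nicn1 and by Hcls1, a gene of blood cells.

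S100a6, calcyclin, had lower means at the low doses than with DMSO and rose at 3 µM. It stood at 314, 228 and 222 CPM with DMSO, 152, 178 and 198 at 1 µM, 115, 141 and 232 at 1.5 µM, and 388, 525 and 411 at 3 µM. The 1 µM group lay under DMSO and the 3 µM group above every other group, while at 1.5 µM culture 3 overlapped DMSO. The log2 change was -0.64 ± 0.251 at 1.5 µM (adjusted p 0.0815, and 0.0335 with DESeq2 or 0.0101 without the 1.5 µM library of culture 3). At 3 µM it was 0.79 ± 0.251 (adjusted p 0.0206, edgeR's quasi-likelihood test). That call was lost without the DMSO library of culture 2 (0.0779) or 3 (0.0839), without the 3 µM library of culture 2 (0.0899), or with scaling by library size only (0.0619). The step from 1.5 to 3 µM was 1.44 ± 0.255 (adjusted p 0.00298).

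The annexin-binding members likewise had their lowest means at the low doses and rose at 3 µM. S100a10, the p11 chain that binds annexin A2, stood at 98.8, 123 and 96.7 CPM with DMSO, 79.8, 81.5 and 71.6 at 1 µM, 83.4, 84.7 and 77.2 at 1.5 µM, and 171, 208 and 151 at 3 µM. Both low doses lay wholly under DMSO and 3 µM wholly above it. The log2 change was -0.45 ± 0.130 at 1 µM (adjusted p 0.2) and -0.37 ± 0.130 at 1.5 µM (adjusted p 0.0549), so that neither passed in edgeR's quasi-likelihood test. With the culture as a block both passed (adjusted p 0.0196 and 0.00501), and at 1.5 µM DESeq2 (0.0298), relative log expression size factors (0.0456) and fits without the DMSO library of culture 3 (0.0412) or the 3 µM library of culture 2 (0.0272) or 3 (0.0254) passed too. The rise at 3 µM was 0.74 ± 0.130 (adjusted p 0.000858), and the step from 1.5 to 3 µM was 1.11 ± 0.131 (adjusted p 0.000453).

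S100a11, which binds annexin A1, had the highest level per kilobase of the family in every group but 3 µM. It stood at 308, 258 and 208 CPM with DMSO, 266, 242 and 199 at 1 µM, 244, 248 and 186 at 1.5 µM, and 350, 426 and 362 at 3 µM. The low doses overlapped DMSO and 3 µM lay above it. The log2 change at 3 µM was 0.56 ± 0.171 (adjusted p 0.0178, edgeR's quasi-likelihood test). The call was lost without the DMSO library of culture 2 (0.0548) or 3 (0.0846) or the 3 µM library of culture 2 (0.0838), with only these 2 groups fitted (0.0508), and with scaling by library size only (0.114). Of the 36-base stretches of its transcripts 46.8% also occur in pseudogenes, so that its counts can depend on how shared reads were placed, and S100a4 shares 48.7% and S100a3 4.42% with the overlapping annotated gene Gm42674. S100a3 also overlaps S100a2, which had 0 to 2 counts per library. No such stretch of the other 7 members was shared.

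The S100a11 promoter is shown because it held the most motif letters of the 8 members searched, although its gene changed least at 3 µM. The stretch is chr3:93520246-93520487 on the plus strand, from RefSeq on build GRCm38.p6, and capitals mark CTTTGA (TCF/LEF) once and TGANTCA (AP-1) in 2 places.
S100a11: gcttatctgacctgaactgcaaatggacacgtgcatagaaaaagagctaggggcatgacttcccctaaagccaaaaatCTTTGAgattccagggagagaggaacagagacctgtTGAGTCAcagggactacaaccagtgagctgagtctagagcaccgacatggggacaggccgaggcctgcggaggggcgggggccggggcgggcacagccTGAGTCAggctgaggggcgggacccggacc
The TCF/LEF letters lay 172 to 167 bases before the start, and the AP-1 letters 136 to 130 and 38 to 32 bases before it. S100a3 held the TCF/LEF letters 139 to 134 bases before one of its starts, and a second start of S100a16 had AP-1 letters 192 to 186 bases before it. The windows of S100a1, S100a4 and S100a6 held none of the 3 motifs.

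Over the family, 0 of 10 members were called at 1 µM against 0.242% of all genes, in edgeR's quasi-likelihood test. There 5 members had an unadjusted p under 0.05 (against 11.7% of all genes), DESeq2 called 1, S100a9, and with the culture as a block 1 was called, S100a10, and 859 genes. At 1.5 µM 4 of 10 were called (27.3% of all genes): S100a8, S100a9 and S100a14 rose and S100a1 fell. With the block 6 members and 7146 genes were called there. At 3 µM 10 of 10 were called (57.5% of all genes), 8 higher (29.9%) and 2 lower (27.7%). The 3 libraries of a dose did not overlap the 3 DMSO libraries for 4 members at 1 µM (19.4% of all genes), 6 at 1.5 µM (45.6%) and 10 at 3 µM (60.8%). The median log2 change of the members was -0.04, 0.14 and 1.49 at the 3 doses, against -0.00, -0.00 and -0.03 over all genes tested. All 3 comparisons share the DMSO libraries. With scaling by library size only, the median of all genes at 3 µM moved to -0.23 and the split of all calls from 4574 higher and 4239 lower to 3395 and 5401, while 8 members were called and none changed direction.

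**Figure D2:**
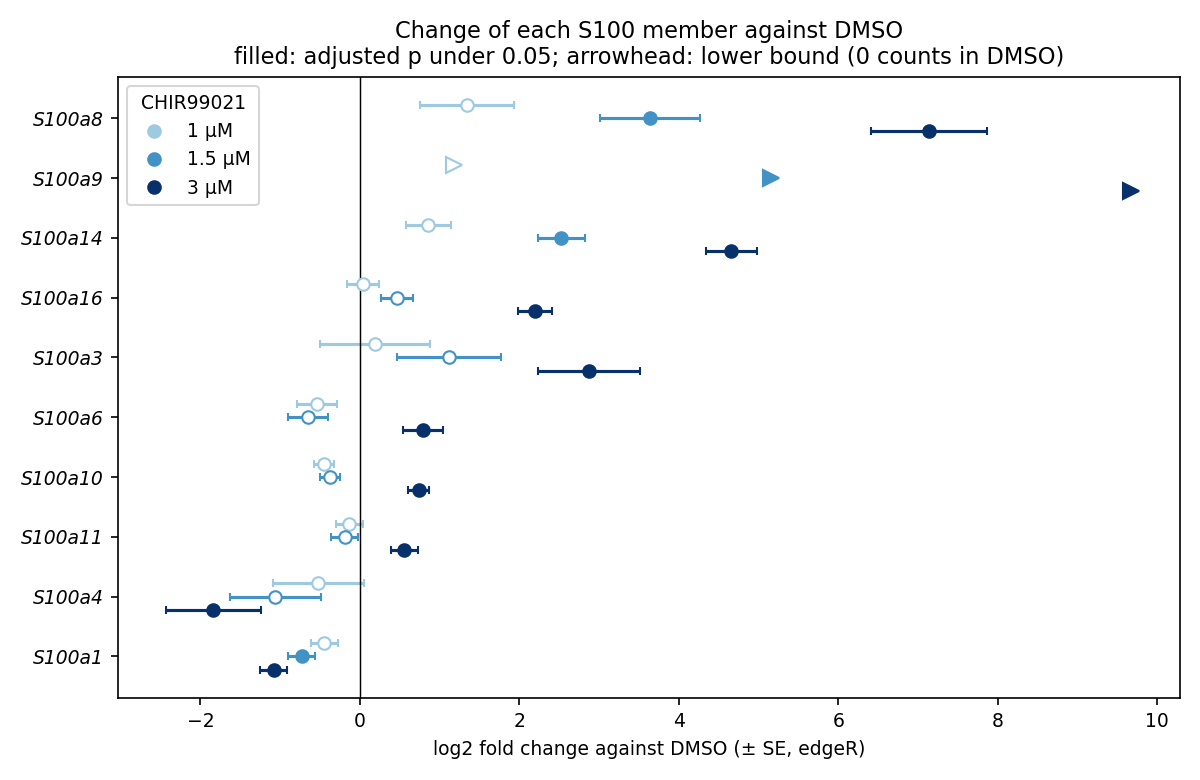
Log2 fold change of each member against DMSO at 1, 1.5 and 3 µM with its standard error from edgeR, filled where the adjusted p was under 0.05. S100a9 is drawn as an arrowhead at its lower bound against a floor of 3 counts per library, and at 3 µM the members with counts in DMSO run from -1.84 for S100a4 to 7.14 for S100a8, and the bound of S100a9 lies above that.

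Between 1 and 1.5 µM 2 members were called, S100a9 and S100a14, both higher (5.43% of all genes called, 4.43% higher), and 5 did not overlap (31.2%). S100a8 just missed (2.30 ± 0.584, adjusted p 0.0504), and passed with the culture as a block (0.00461), with DESeq2 (0.000652) and without the DMSO (0.0459) or the 3 µM library (0.0338) of culture 3. Between 1.5 and 3 µM 8 members rose (29.7% of all genes called, 17% higher), all but S100a4 and S100a1. The groups did not overlap for 8 members (42.8% of all genes), 7 higher and S100a1 lower, while S100a3 and S100a4 overlapped. S100a9 rose by 4.52 ± 0.395, 23.0-fold, and S100a8 by 3.50 ± 0.608, 11.3-fold, in that step, with adjusted p-values of 0.000303 and 0.00275 in edgeR's quasi-likelihood test. With scaling by library size only, S100a11 (0.0694) and S100a3 (0.0763) lost that call and S100a1 fell (-0.63, adjusted p 0.0214), where the split over all genes went from 2601 higher and 1944 lower to 1050 and 3859.

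The group means rose at each of the 3 dose steps for 5 members (23.2% of all genes), fell at each for 2 (23.9%), and were mixed for S100a6, S100a10 and S100a11. A straight slope on dose was called for 9 of 10 members (58.2% of all genes), 7 upward (30.2%) and 2 downward (28%), from 2.45 ± 0.210 log2 per µM for S100a8 to -0.62 ± 0.177 for S100a4 among members with counts in DMSO, and not for S100a6 (0.29 ± 0.126, adjusted p 0.0611, and 0.0182 or 0.0365 without the DMSO or the 1.5 µM library of culture 1). With scaling by library size only, the slope of S100a11 was not called (adjusted p 0.102), and the split over all genes went from 4624 upward and 4284 downward to 3233 and 5154. The slopes of S100a10 (0.27 ± 0.0920, adjusted p 0.0222) and S100a11 (0.20 ± 0.0697, 0.0278) rest on the highest dose. Without any 1 of the 3 µM libraries both lost the call (0.0535 to 0.129 and 0.0843 to 0.157), as S100a11 did without the DMSO library of culture 3 (0.081).

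The make-up of the family differed between doses. Per kilobase the order with DMSO was S100a11 (504 ± 98.0 RPKM), S100a6 (279 ± 56.7), S100a4 (150 ± 57.0), S100a1 (123 ± 23.1), S100a10 (87.5 ± 12.0), S100a16 (46.2 ± 8.92), S100a8 (10.3 ± 6.26), S100a14 (8.51 ± 4.37), S100a3 (0.0888 ± 0.0634) and S100a9 at 0 (SD, n = 3). The neighbours S100a4 and S100a1, S100a1 and S100a10, and S100a8 and S100a14 overlapped in range. At 3 µM S100a8 led (1456 ± 803 RPKM), overlapping S100a11 (742 ± 79.5), and S100a6 (484 ± 80.3), S100a9 (313 ± 73.5), S100a14 (217 ± 25.6), S100a16 (212 ± 56.7), S100a10 (146 ± 24.0), S100a1 (57.9 ± 4.66), S100a4 (41.9 ± 23.8) and S100a3 (0.723 ± 0.445) followed. Of these, S100a9 overlapped S100a14, S100a14 overlapped S100a16, S100a16 overlapped S100a10, and S100a1 overlapped S100a4.

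As a share of the members' summed RPKM, the 2 alarmins made up 0.889 ± 0.634% with DMSO and 46.3 ± 13.5% at 3 µM (SD, n = 3). At 1 µM their share was 2.66 ± 0.919%, and it was 12.7 ± 5.74% at 1.5 µM. By culture the 3 µM shares were 34.6, 43.2 and 61.0%. S100a4 and S100a6 together went from 35.7 ± 2.86% to 14.7 ± 3.20%, and S100a10 and S100a11 from 48.7 ± 3.63% to 25.0 ± 5.74%, although 3 of these 4 genes rose at 3 µM. S100a14, S100a16, S100a1 and S100a3 together held 14.7 ± 0.302% with DMSO, where S100a1 was the highest of them, and 14 ± 4.78% at 3 µM, where S100a14 and S100a16 were. The summed RPKM was 1209 ± 118 with DMSO and 3670 ± 856 at 3 µM.

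**Figure D3:**
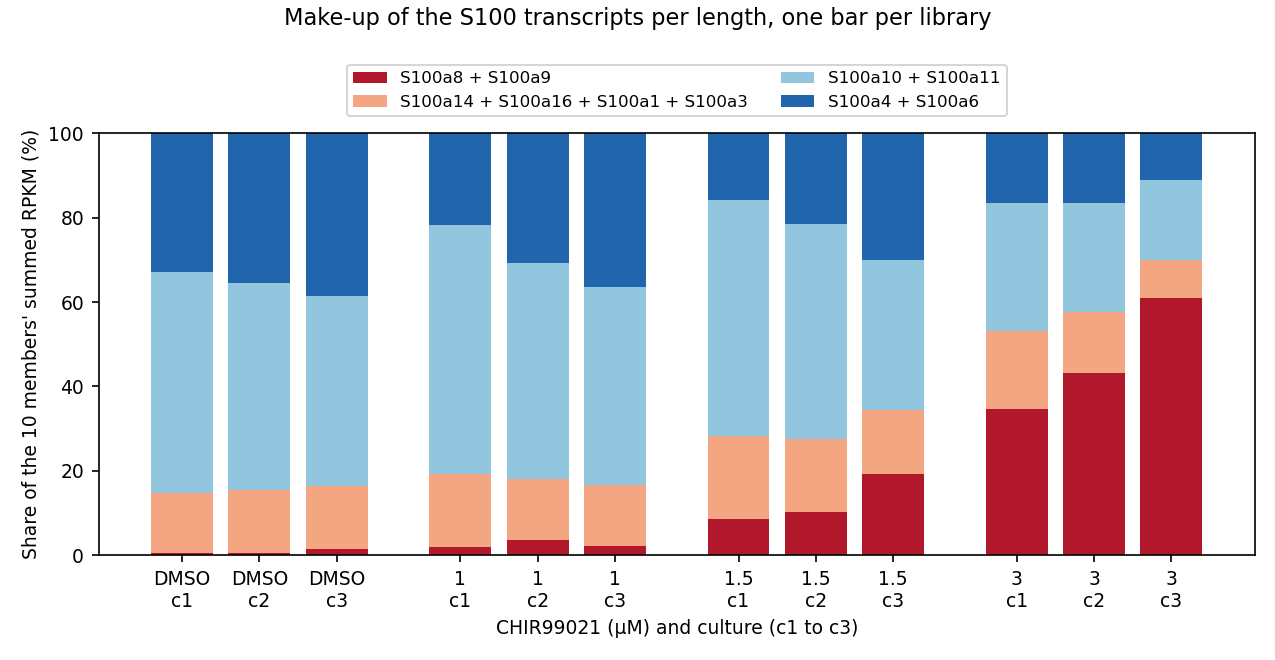
Share of the 10 members' summed RPKM held by 4 role groups, one stacked bar per library, ordered by dose and culture. The alarmin part grows from 0.460 to 1.62% with DMSO to 34.6 to 61.0% at 3 µM, and at 1.5 and 3 µM it is largest in culture 3.

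Cultures differed in their S100 levels at like dose. In a model with treatment and culture, 4 of 10 members differed between cultures (28.8% of all genes, edgeR's quasi-likelihood test): S100a4 (adjusted p 0.00511), S100a8 (0.0282), S100a10 (0.0332) and S100a11 (0.0458). S100a4 kept this in each of the 12 leave-one-out fits. S100a8 lost it without any 1 library of culture 1 or without the DMSO, 1.5 or 3 µM library of culture 3, with adjusted p up to 0.0852, and with no filter on low counts (0.0864). S100a10 lost it without the 1 or 1.5 µM library of culture 1, the DMSO or 3 µM library of culture 2, or the DMSO, 1 or 1.5 µM library of culture 3 (up to 0.0838). S100a11 lost it in 10 of 12 such fits (up to 0.141), all but those without the 3 µM library of culture 1 or 3, and with scaling by library size only (0.084). Conversely, S100a1 passed without the 3 µM library of culture 1 (0.0384) or 3 (0.0116), and S100a16 without that of culture 3 (0.0172). A difference of the dose slope between cultures was called for 0 members and 0 of 15316 genes, with an unadjusted p under 0.05 for 0 members and 1230 genes, and no other tool was run for it.

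At 1.5 and 3 µM culture 3 had the highest S100a8 and the lowest summed level of squamous genes. At 3 µM the summed level of the 12 squamous genes was 35174, 32821 and 10330 CPM in cultures 1, 2 and 3, against 493, 936 and 1601 CPM for S100a8. At 1.5 µM the squamous sums were 5599, 5893 and 2716 CPM against 50.3, 68.9 and 149 CPM. The other groups did not share this order: at 1 µM S100a8 was highest in culture 2 (26.7 CPM), and with DMSO the squamous sum was lowest in culture 2 (40.4 CPM, against 42.2 CPM in culture 3). The squamous sum per unit of S100a8 at 3 µM was thus 71.3, 35.1 and 6.45. Without the 3 µM library of culture 3, S100a8 still rose at 3 µM by 6.62 on the log2 scale (adjusted p 5.24e-05), and 9 of 10 members were called, S100a4 being lost. Over the 12 libraries, of 12430 genes compared, those most like S100a9 were Sprr2d (r = 0.998) and Sprr2b (0.994), cornified envelope genes, and Pglyrp1 (0.994), an antibacterial peptidoglycan-binding protein. For S100a8 they were Gls2 (0.983), a glutaminase, Lipg (0.982), an endothelial lipase gene, and Sprr2d (0.980). For S100a14 they were Pkp1 (0.994), a desmosome gene, Dyrk3 (0.994) and Ddb1 (0.994), and for the sparsely counted S100a3 they were Pdcd2l (0.981), Zfp706 (0.972) and Ngfrap1 (0.972). These are descriptions, since all genes share the doses and libraries.

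**Figure D4:**
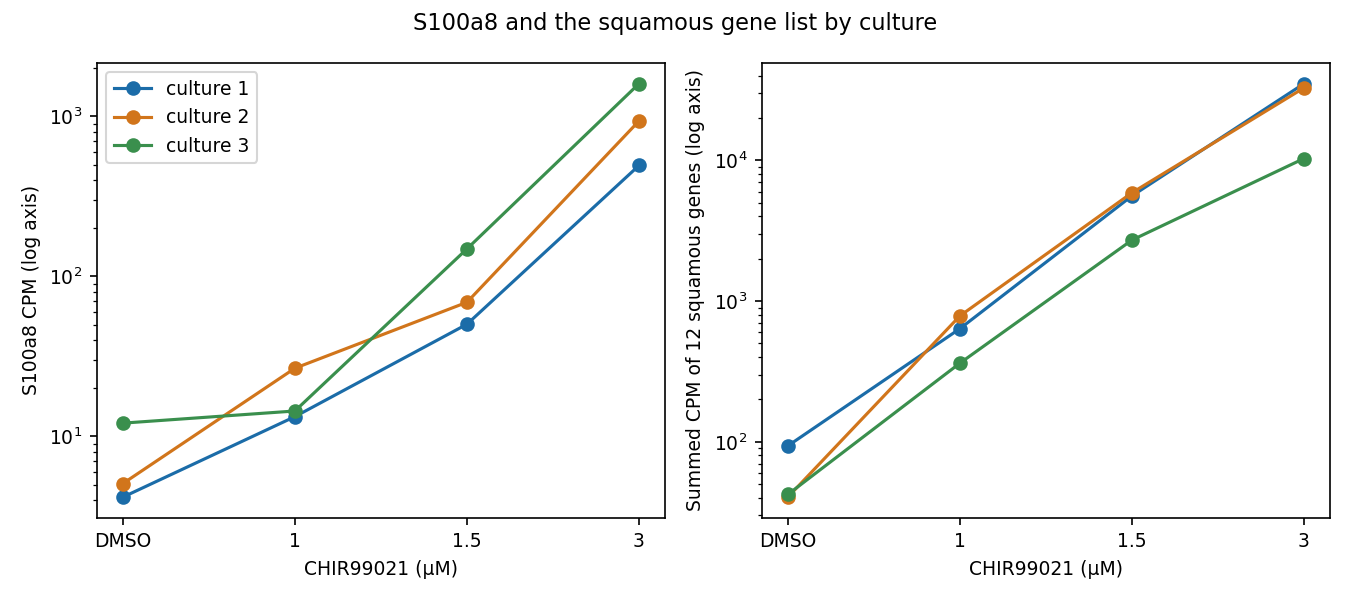
S100a8 CPM and the summed CPM of 12 squamous genes, both on log axes, by CHIR99021 dose (equally spaced), one line per culture. At 3 µM culture 3 is highest for S100a8 (1601 CPM) and lowest for the squamous sum (10330 CPM).

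Of 15 listed partners and receptors of S100 proteins, all tested, 0 rose and 7 fell at 1.5 µM (15.4% and 11.8% of all genes), and 5 rose and 6 fell at 3 µM (29.9% and 27.7% of all genes). Anxa2, the partner of S100a10, fell at 1.5 µM (-0.55 ± 0.136, adjusted p 0.0142) and rose at 3 µM (0.44 ± 0.136, adjusted p 0.0193, edgeR's quasi-likelihood test), while S100a10 had -0.37 and 0.74 at these doses. Cacybp and Sugt1, both binding partners of S100A6, rose at 3 µM by 1.22 ± 0.161 and 0.63 ± 0.0941 (adjusted p 0.000143 and 0.000301). Among alarmin receptors at 3 µM, Tlr4 fell (-0.94 ± 0.125, adjusted p 0.000147), as did Mcam (-2.36 ± 0.253), Alcam (-0.77 ± 0.219), Nptn (-0.35 ± 0.0695) and Cd36 (-5.48 ± 0.780), Bsg rose (0.96 ± 0.221, adjusted p 0.004), and Ager, the receptor for advanced glycation end products, had -0.34 ± 0.310 (adjusted p 0.365). Ahnak, a scaffold held by S100A10 and annexin A2, fell by 0.29 ± 0.101 on the log2 scale.

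Of 7 other S100 genes listed, 5 were in the table and 4 were tested. S100a7a, a psoriasin relative, rose from 0 to 12 counts per library with DMSO to 28 to 130 at 3 µM (4.17 ± 0.937, adjusted p 0.00358, edgeR's quasi-likelihood test). S100a13 fell at 1.5 µM (-0.95 ± 0.157, adjusted p 0.00226) and 3 µM (-1.61 ± 0.161, adjusted p 2.58e-05), and S100b, a marker of glia and fat, fell at 3 µM (-3.13 ± 1.06, adjusted p 0.0278). S100g had 5 to 27 counts per library with DMSO and 3 to 9 at 3 µM and was not called, and S100a5 had 1 count in all.

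The members' neighbours on the chromosome were also compared. In the deposited annotation 8 members lie on chromosome 3 between 90511034, in S100a1, and 90695721, at the far end of S100a9, and S100a11 and S100a10 lie 2.82 megabases on, from 93520488 to 93564643. Along the first cluster the tested genes came in the order S100a1, S100a13, S100a14, S100a16, S100a3, S100a4, S100a6, S100a7a, S100a8, S100a9. At 3 µM the first 2 fell, the next 3 rose, S100a4 fell, and the other 4 rose. S100a4, which fell, starts at 90603770 and S100a6, which rose, at 90612894. Between S100a9 and S100a11 lie 56 other genes, mostly of the epidermal differentiation complex, of which 49 were tested. At 1 µM 2 rose (Pglyrp4 and Rptn, named after their values were seen), against 0.242% of all genes called in either direction. At 1.5 µM 48 rose and at 3 µM 49, against 15.4% and 29.9% of all genes, and 0 fell. Many had few or no counts with DMSO and passed the filter through treated libraries, so a fall could not be called for them. Of the 49, 9 had 0 counts in all DMSO libraries, among them Sprr2d and Hrnr, the largest fitted changes. The other 40 rose by 2.22 to 12.6 on the log2 scale with a median of 8.12. S100a11 and S100a10, on the far side of that run, rose 1.47-fold and 1.66-fold. The 8 members on the near side ran from S100a4, 3.57-fold lower, to S100a9, at least 819-fold higher. Among them S100a6 rose 1.73-fold and S100a8 141-fold.

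**Figure D5:**
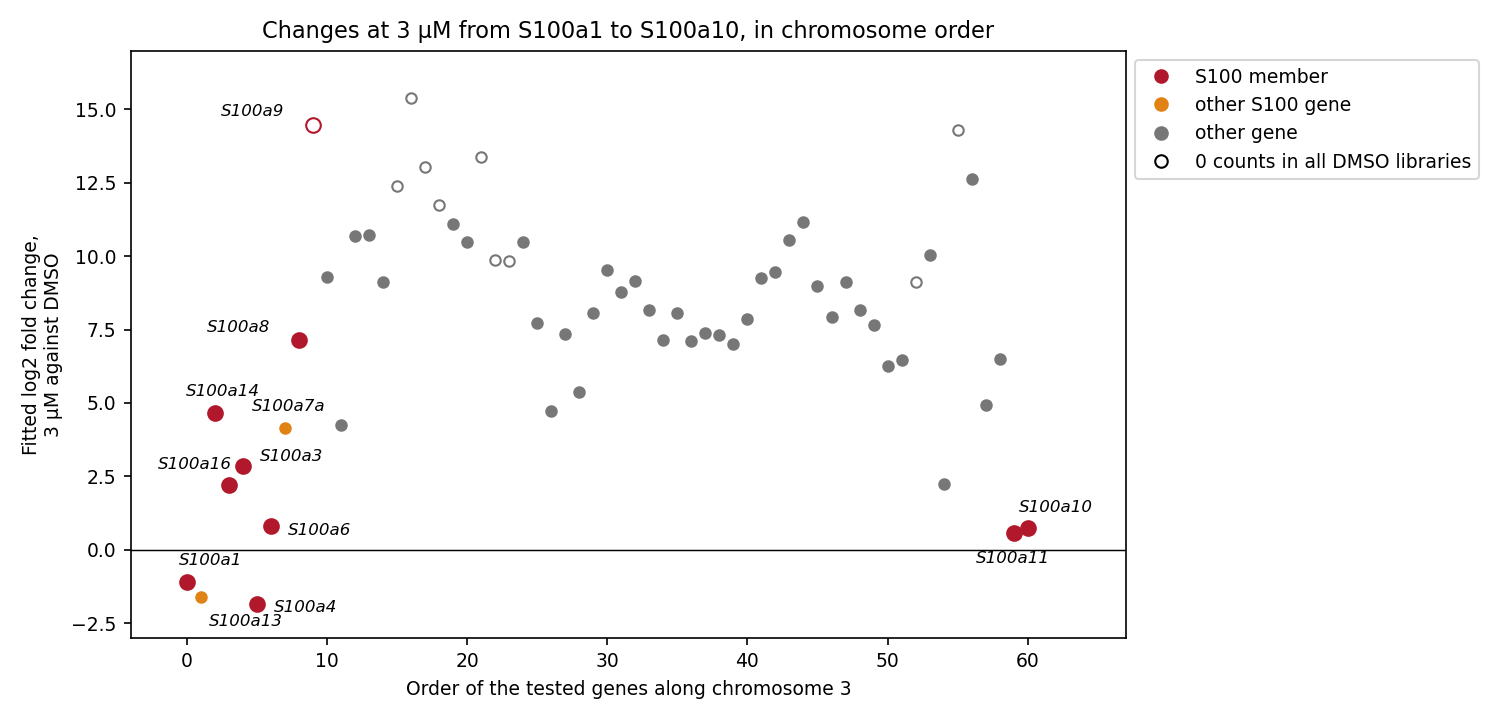
Fitted log2 fold change at 3 µM against DMSO (edgeR) for the tested genes from S100a1 to S100a10, in order along chromosome 3 and not by distance. Open circles had 0 counts in all DMSO libraries, so that their height depends on the prior count, and all 49 tested genes between S100a9 and S100a11 lie above 0.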

How the data were processed

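RNA-seq of 12 libraries was analysed from the raw read counts per gene that the authors deposited, and the log2 values in the authors' second deposited table were checked against those counts and used for nothing else. The submitters' processing notes name TopHat2 2.1, Bowtie 1.1.0, HTSeq, DESeq2 and the build GRCm38 (mm10), and whether counting used strand is not given in the sources used here. Counts were tested with edgeR 4.0.16 in R 4.3.3 (filterByExpr, TMM, robust quasi-likelihood fit of 4 group means, two-sided tests, Benjamini-Hochberg over 15316 genes), and a standard error is the log2 change divided by the square root of F. DESeq2 1.42.0, a replicate block, other scalings, no filter, 2-group fits and leaving out each library were the alternatives. CPM used TMM-scaled library sizes, and RPKM used the union of GENCODE exons within each deposited gene. Library totals of 10129264 to 24485855 counts put the floor of 3 counts at 0.115 to 0.304 CPM, for counting error only.

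The members, gene lists and tests were chosen with earlier results of these data known. All 10 members are named, with the 3 most alike genes by Pearson correlation of log2 CPM (prior count 2, mean of at least 50 counts) for up to 5 of them, listed genes called at 3 µM or defining markers at 0, and the 2 largest changes among the chromosome 3 neighbours. Listed genes were grouped as other S100 genes, S100 partners and receptors, neutrophil, leukocyte, fibroblast, endothelial, adipocyte, epithelial, squamous, hair shaft and WNT feedback genes. Of the 8 epithelial genes 3 rose and 3 fell at 3 µM, against 29.9% and 27.7% of all genes. The series' design text gives 3 cultures, rep1 to rep3, from 3 animals, each under all treatments, so the numbers pair the libraries. Deviations from group means correlated at 0.177 to 0.840 over 18 same-numbered pairs. Over 36 other pairs the correlations ran from -0.728 to 0.288 with a median of -0.212, so the ranges overlapped. The fit was tested first on simulated data that held no culture differences. There it called 43 to 47% of 2-fold changes and 79 to 84% of 4-fold changes, so many 2-fold changes were missed. Protein sequences were not analysed here.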

Additional observations from a re-analysis of the deposited data

How the results depend on the processing

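Of 1365 alternative values for single members, 1269 kept direction and side of the threshold, 64 lost the call, 23 gained one and 9 changed sign, the last all without a call and by leaving out 1 library. They arose in 5 results, whose leave-one-out values (log2) ran, at 1 µM against DMSO, from -0.29 to 0.018 for S100a11, from -0.069 to 0.18 for S100a16 (also -0.013 and -0.064) and from -0.070 to 0.95 for S100a3 (also -0.055), and, from 1 to 1.5 µM, from -0.17 to 0.065 for S100a11 (also 0.037) and from -0.45 to 0.089 for S100a6. With the replicate block, which pairs libraries by animal, 1 member was called at 1 µM, and all genes called went from 37 to 859 at 1 µM, from 4177 to 7146 at 1.5 µM, from 831 to 3352 between 1 and 1.5 µM, and from 4545 to 7148 between 1.5 and 3 µM. The block ended no member's call and added 4, all given beside the members. DESeq2 called 1 member and 470 genes at 1 µM and 1610 genes between 1 and 1.5 µM. Fits of only 2 groups called 0 genes at 1 µM and 2852 between 1.5 and 3 µM. With no filter on low counts 494 genes were called between 1 and 1.5 µM, and 2 for a slope that differs between cultures. Leaving out 1 library gave 3 to 50 genes and 0 to 1 members at 1 µM, 2462 to 5085 genes at 1.5 µM, 135 to 1508 genes and 1 to 3 members between 1 and 1.5 µM, 2962 to 5682 genes between 1.5 and 3 µM, and 2658 to 5861 genes and 1 to 5 members for the culture difference. The cause of these shifts was not tested. At 3 µM the members called ranged from 7 to 10. Depth limits S100a3 and S100a9 with DMSO, where counts were 0 to 9 per library.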
